A study of Homo sapiens with 60 samples.

Results

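The genes described here are the 37 genes of the human mitochondrial genome, found as the rows of the deposited table whose gene symbol starts with MT-, out of 60675 gene rows in all. They comprise 13 protein-coding genes, 2 ribosomal RNA genes and 22 transfer RNA genes. The cells were SW1783, an established line from a human astrocytoma, kept in L-15, a medium that supplies galactose in place of glucose, and 60 RNA libraries were sequenced. Treatment lasted 24 h: cells were exposed to one of 8 herbal extracts, each at a high, a medium and a low dose, or to dimethyl sulfoxide as vehicle.

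Hot-water extracts of 2 multi-herb decoctions, Yijin-tang and Soshiho-tang, were used, and the other 6 are ethanol extracts of single herbs. Doses of 500, 100 and 20 µg/mL were given for Yijin-tang (3 libraries each), Soshiho-tang (2 each), Longan Arillus (3 each), Zizyphi Semen (3 each) and Liriopis seu Ophiopogonis Tuber (3 each). For Schisandrae Fructus they were 310, 62 and 12.4 µg/mL, again in 3 libraries. A single library stands for each dose of Polygalae Radix (30, 6 and 1.2 µg/mL) and of Aucklandiae Radix (160, 32 and 6.4 µg/mL). Extracts with a top dose under 500 µg/mL were given at an inhibitory concentration and at fixed dilutions of it, per the design text. The vehicle group has 3 libraries. All groups are 1 cell line in the same medium, and nothing in the sources says whether libraries of a group came from separate cultures, so a p-value covers library-to-library spread, which may be technical.

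The mitochondrial genome is a small circular DNA that is copied into long RNAs running across both strands, which are then cut into separate messenger, ribosomal and transfer RNAs. Its messenger RNAs encode core subunits of complex I (MT-ND1 to MT-ND6 and MT-ND4L), complex III (MT-CYB), complex IV (MT-CO1 to MT-CO3) and the ATP synthase (MT-ATP6 and MT-ATP8). MT-RNR1 and MT-RNR2 are the RNAs of the small and the large subunit of the mitochondrial ribosome, and the transfer RNAs serve translation inside the organelle. Everything else needed to copy, read and translate this genome is imported from the cytosol, and glial tumour lines use the respiratory chain alongside glycolysis.

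Libraries held 18.73 to 35.52 M counts, with a median of 25.78 M. By the first part of their names the libraries fall into 5 sets, a division whose meaning the labels do not give. The vehicle libraries are a set of their own, so treatment and set cannot be told apart in any comparison with vehicle, while the high and the low dose of an extract share a set. The astrocytic label was checked on 8 markers, of which 4 had a median of at least 1 CPM (counts scaled to the same total in each library): vimentin (VIM, median 4824 CPM), SOX9 (74.5), SLC1A3 (23.7) and NES (6.15). GFAP (median 0.117 CPM), S100B (0.082), AQP4 and ALDH1L1 (both with a median of 0) were at or near 0. The Polygalae Radix high-dose library stood apart, with 772 CPM of VIM where the other groups of that extract had 3602 CPM at the medium and 5344 CPM at the low dose.

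Of the 37 genes, 30 had at least 1 count in some library and 17 passed the expression filter: the 13 protein genes, both ribosomal RNA genes, MT-TA and MT-TQ. Values are CPM made from the deposited expected counts. Fold changes are log2 values from edgeR's quasi-likelihood test, and an adjusted p is a Benjamini-Hochberg value over the 17851 genes tested, with 0.05 as the threshold for a call.

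Sequence stretches from some of these genes show shared bases and base content. All are from the mitochondrial chromosome (MT) of GRCh38, as given in GENCODE release 29, and are written 5′ to 3′ on the strand of the gene. MT-ATP8 and MT-ATP6 share 46 bases (8527 to 8572) on 1 messenger RNA, so that reads there belong to both genes. In the following stretch (8507 to 8592, plus strand) the capitals mark the shared bases.
MT-ATP8 and MT-ATP6: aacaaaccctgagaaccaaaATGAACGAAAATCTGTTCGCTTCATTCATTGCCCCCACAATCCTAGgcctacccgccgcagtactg
MT-ND6 is the protein gene read from the other strand, and its RNA is rich in G where the other messenger RNAs are poor in it. Its G content was 35.62% and its C content 7.05%, against 6.28% to 16.21% G and 29.48% to 35.98% C in the other 12. The first 60 bases of MT-ND6 (14614 to 14673, minus strand) and of MT-ND5 (12337 to 12396, plus strand), which lies next to it, show this with every G in capitals.
MT-ND6: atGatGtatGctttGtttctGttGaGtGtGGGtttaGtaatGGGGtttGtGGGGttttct
MT-ND5: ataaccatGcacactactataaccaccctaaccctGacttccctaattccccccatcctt
MT-RNR1 (648 to 1601, 954 bases) and MT-RNR2 (1671 to 3229, 1559 bases) lie near the start of the plus-strand transcript, with MT-TV between them. Their first 60 bases are shown with G in capitals, since they are the genes whose levels differed between doses. The part of G content in that difference was not tested.
MT-RNR1: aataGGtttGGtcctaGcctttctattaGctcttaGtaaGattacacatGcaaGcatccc
MT-RNR2: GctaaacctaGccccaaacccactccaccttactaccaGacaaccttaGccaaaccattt

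Mitochondrially encoded RNA made up a large share of every library. The 37 genes took 11.604%, 11.809% and 11.916% of the counts in the 3 vehicle libraries, and between 10.133% and 20.303% over all 60 libraries (median 12.713%). In vehicle, protein genes accounted for 10.33% ± 0.13 (SD, n = 3) of the counts and ribosomal RNA for 1.45% ± 0.03. MT-CO1 had the highest mean CPM of all genes in the table, MT-ND4 ranked 2 and MT-CO2 ranked 3, and 10 of the 37 were among the 11 most abundant. These are levels in a messenger RNA library, which does not sample every RNA class alike.

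Per length, the counts of the 13 protein genes in vehicle cells spanned about an order of magnitude. MT-CO2, a catalytic subunit of complex IV, led with 18714 ± 555 CPM per kb (SD, n = 3). MT-CO1, the other catalytic subunit of that complex, followed with 15368 ± 65.1 CPM per kb. MT-ATP6 (12106 ± 339) and MT-ND4 (12105 ± 364) did not differ beyond their spread. MT-CO3 came after them with 10754 ± 522, then MT-ND1 with 7926 ± 596. MT-CYB (6803 ± 322) and MT-ND2 (6793 ± 292) overlapped, as did MT-ND2 and MT-ATP8 (5961 ± 726). Lower still were MT-ND4L (4851 ± 84.6), MT-ND3 (4248 ± 205) and MT-ND5 (3211 ± 82.6). MT-ND6, the gene of the other strand, was the lowest protein gene with 1978 ± 198 CPM per kb. These are counts per gene over its full length. The effect of short length on MT-ATP8 (207 bases), MT-ND4L (297 bases) and MT-ND3 (346 bases) was not tested. MT-ATP8 and MT-ATP6 lie on 1 messenger RNA, so their values are not levels of separate RNAs. MT-ND4L also shares 7 bases with MT-ND4. Of the ribosomal RNAs, MT-RNR2 had 8817 ± 194 CPM per kb and MT-RNR1 780 ± 22.3, so the counts per length of these neighbours on 1 transcript were far apart in this messenger RNA library.

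**Figure D1:**
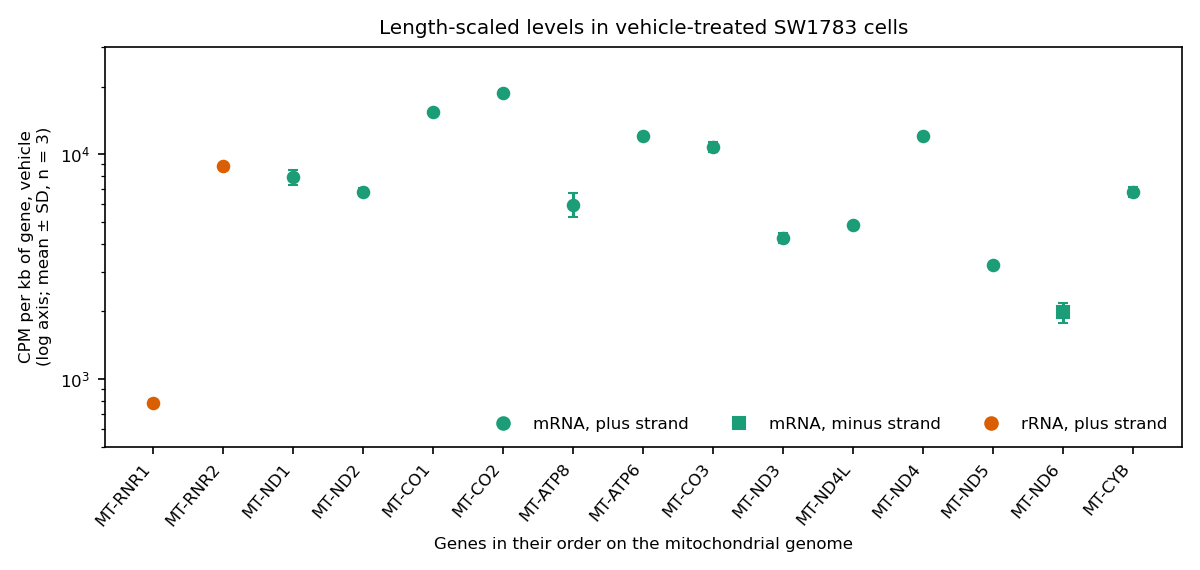
CPM per kb of gene (log axis) in vehicle-treated SW1783 cells for the 2 ribosomal and 13 messenger RNAs in genome order; points are means and bars SD over 3 libraries, and the square marks the gene on the minus strand. MT-CO2 is highest at 18714 CPM per kb and MT-RNR1 lowest at 780.

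Levels of single genes varied by a similar factor across the 60 libraries. The highest library of a gene was between 1.9 times (MT-ND4) and 3.6 times (MT-ND6) its lowest. The Polygalae Radix high-dose library held the highest value for 9 of the 15 genes, among them MT-CO1 with 36144 CPM against a median of 23481 over all libraries. The lowest values lay mostly in 2 libraries, Aucklandiae Radix high (5 genes) and Yijin-tang medium replicate 3 (7 genes). MT-ND6 had its lowest value in a vehicle library (953 CPM) and its highest in Longan Arillus medium replicate 3 (3435 CPM).

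**Figure D2:**
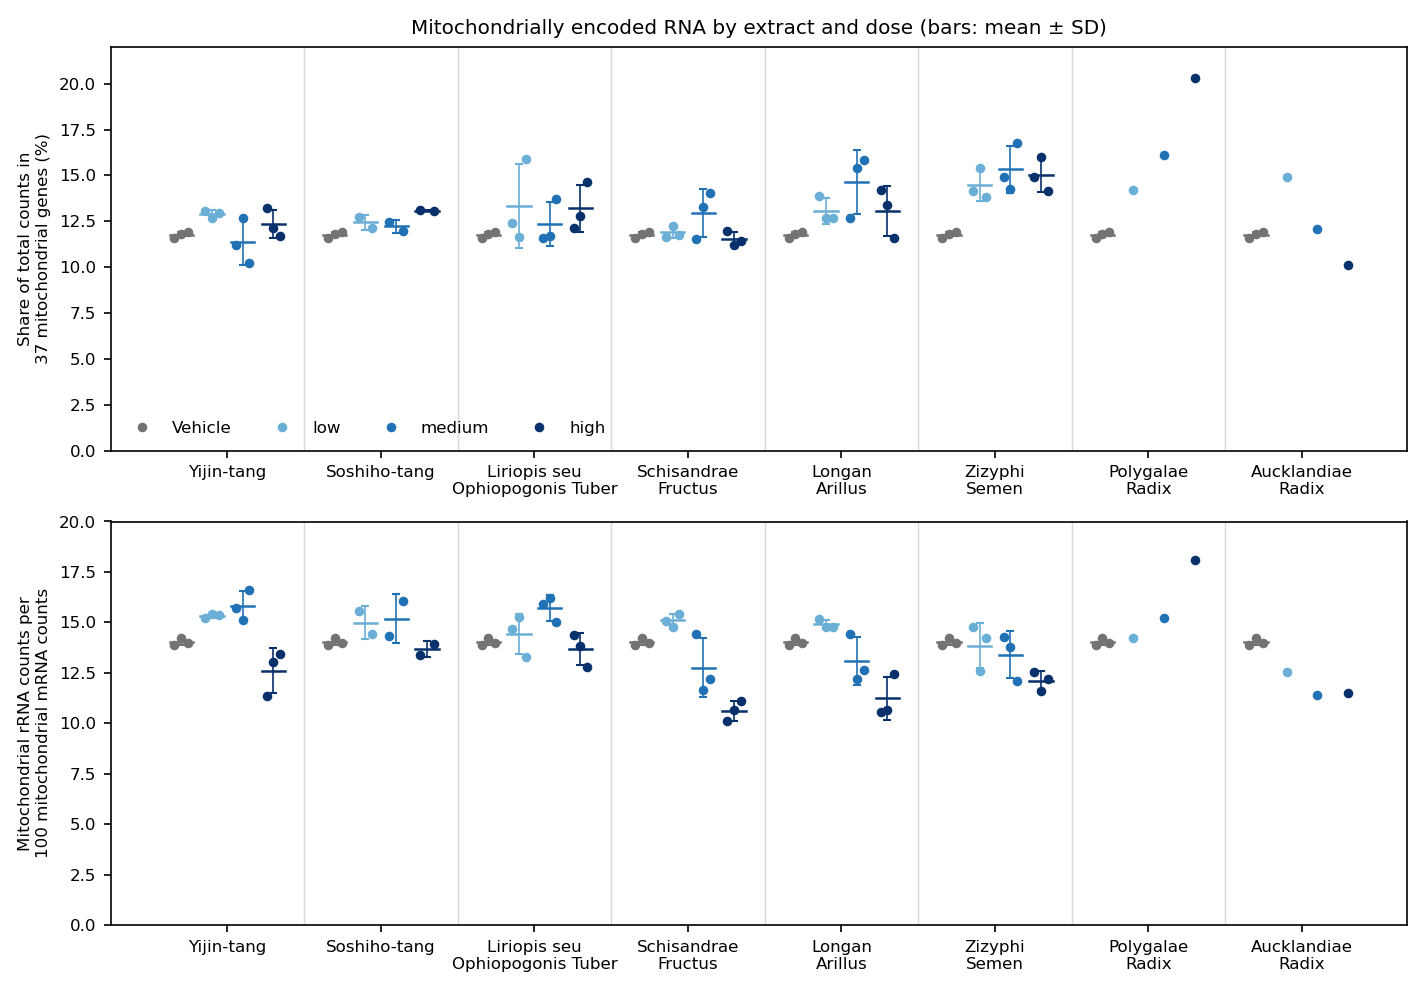
Upper panel, share of total counts in the 37 mitochondrial genes (%); lower panel, mitochondrial ribosomal RNA counts per 100 mitochondrial messenger RNA counts. Each point is a library, bars are mean ± SD, and the same 3 vehicle libraries are drawn beside each extract. The share reaches 20.303% in the Polygalae Radix high-dose library, and in 5 of the 6 extracts with replicates every high-dose library has a lower ratio than every low-dose library, with Liriopis seu Ophiopogonis Tuber as the one that overlaps.

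The first comparison was of high with low dose, which share a library set within each extract. Both ribosomal RNAs fell at high dose of Yijin-tang, Schisandrae Fructus and Longan Arillus, and no messenger RNA passed the test in any extract. The background share of genes that passed was 7.0% for Yijin-tang, 45.9% for Schisandrae Fructus and 0.936% for Longan Arillus. In the direction of lower at high dose it was 3.39%, 23.6% and 0.594% of genes.

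Schisandrae Fructus gave the largest difference. MT-RNR2 had 10135, 10400.4 and 10786 CPM at high dose, against 14348, 14849 and 14986 CPM at low dose. Every high-dose library lay below every low-dose library; in bulk RNA, fewer cells holding an RNA and less of it per cell cannot be told apart. The log2 fold change was -0.48 ± 0.07 (SE), with an adjusted p of 4.84e-07 (edgeR, n = 3 each). MT-RNR1 had 579, 657 and 640 CPM at high dose, against 927, 805 and 838 CPM at low dose, again without overlap. Its log2 fold change was -0.44 ± 0.08, with an adjusted p of 2.33e-05 (edgeR). The medium dose lay near the low dose, with 13100.3, 13749 and 14432 CPM of MT-RNR2, and neither ribosomal RNA passed between medium and low dose.

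Yijin-tang showed a smaller difference of the same sign. MT-RNR2 had 12736, 13099 and 13256 CPM at high dose, against 15982, 16302 and 16414 CPM at low dose, and the groups did not overlap. Its log2 fold change was -0.34 ± 0.07, with an adjusted p of 0.00125 (edgeR). MT-RNR1 averaged 743 ± 21.6 CPM at high dose and 899 ± 64.5 CPM at low dose (SD, n = 3 each), with a log2 fold change of -0.30 ± 0.08 and an adjusted p of 0.0175 (edgeR). The medium-dose libraries split, with MT-RNR2 at 13642, 14323 and 15765 CPM and MT-RNR1 between 899 and 921 CPM. The MT-RNR1 call was lost without high replicate 1 or 2 or low replicate 2 or 3 (adjusted p 0.0528 to 0.0937, edgeR). Over the 6 fits with 1 library left out its log2 fold change was -0.354 to -0.266. Of the 4 expressed astroglial and neural stem markers SOX9 (-0.38, adjusted p = 9.44e-05) and SLC1A3 (-0.34, adjusted p = 0.00268) fell in this comparison, as did the epithelial marker KRT18 (-0.43, adjusted p = 0.0122), all by edgeR, and their part was not tested.

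For Longan Arillus, MT-RNR2 had 12038, 12171 and 12868 CPM at high dose, against 15275, 15419.6 and 17376 CPM at low dose. No high-dose library reached the low-dose range, and the medium dose lay with the low dose at 15097, 15901 and 16599 CPM. The log2 fold change was -0.39 ± 0.07, with an adjusted p of 0.00137 (edgeR). MT-RNR1 averaged 739 ± 38.9 CPM at high dose and 935 ± 57.3 CPM at low dose, with a log2 fold change of -0.36 ± 0.08 and an adjusted p of 0.0178 (edgeR). A fit on these libraries alone lost both calls, with adjusted p of 0.0833 for MT-RNR2 and 0.0821 for MT-RNR1 (edgeR). Leaving out high replicate 1 or 3 or low replicate 1 or 3 also cost MT-RNR1 its call, with adjusted p between 0.0528 and 0.127. No gene of the 5 marker lists passed between these doses (edgeR).

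MT-RNR2 kept its call whichever of the 6 libraries was left out for each of Schisandrae Fructus (highest adjusted p 1.78e-05), Yijin-tang (0.00846) and Longan Arillus (0.0395), all by edgeR. Neither ribosomal RNA passed in the other 3 extracts, where the background shares of genes passing were 18.6% (Soshiho-tang), 0.0% (Liriopis seu Ophiopogonis Tuber) and 5.78% (Zizyphi Semen). Their MT-RNR2 log2 fold changes were -0.05, -0.09 and -0.07 in that order, each with an SE under 0.09. At an unadjusted p under 0.05 the count over these 3 extracts was also 0, and DESeq2 made no call either. Markers differed between doses of Soshiho-tang too (edgeR). SLC1A3 (-0.85), KRT18 (-0.91), KRT8 (-0.42), SNAP25 (-0.66) and PTPRC (-0.62) fell, and NES rose (0.33). No gene of the marker lists passed between doses of Liriopis seu Ophiopogonis Tuber or Zizyphi Semen. An extract that passed beside one that did not was tested directly where doses and library set match. The difference of the MT-RNR2 changes was -0.32 on the log2 scale for Longan Arillus minus Zizyphi Semen (adjusted p = 0.0697, edgeR), which DESeq2 called. For Soshiho-tang minus Yijin-tang the differences were 0.25 and 0.29, with adjusted p of 0.106 or above (edgeR), so these extracts are not shown to differ. In these 2 comparisons of changes, 3.97% and 9.4% of all genes passed.

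**Figure D3:**
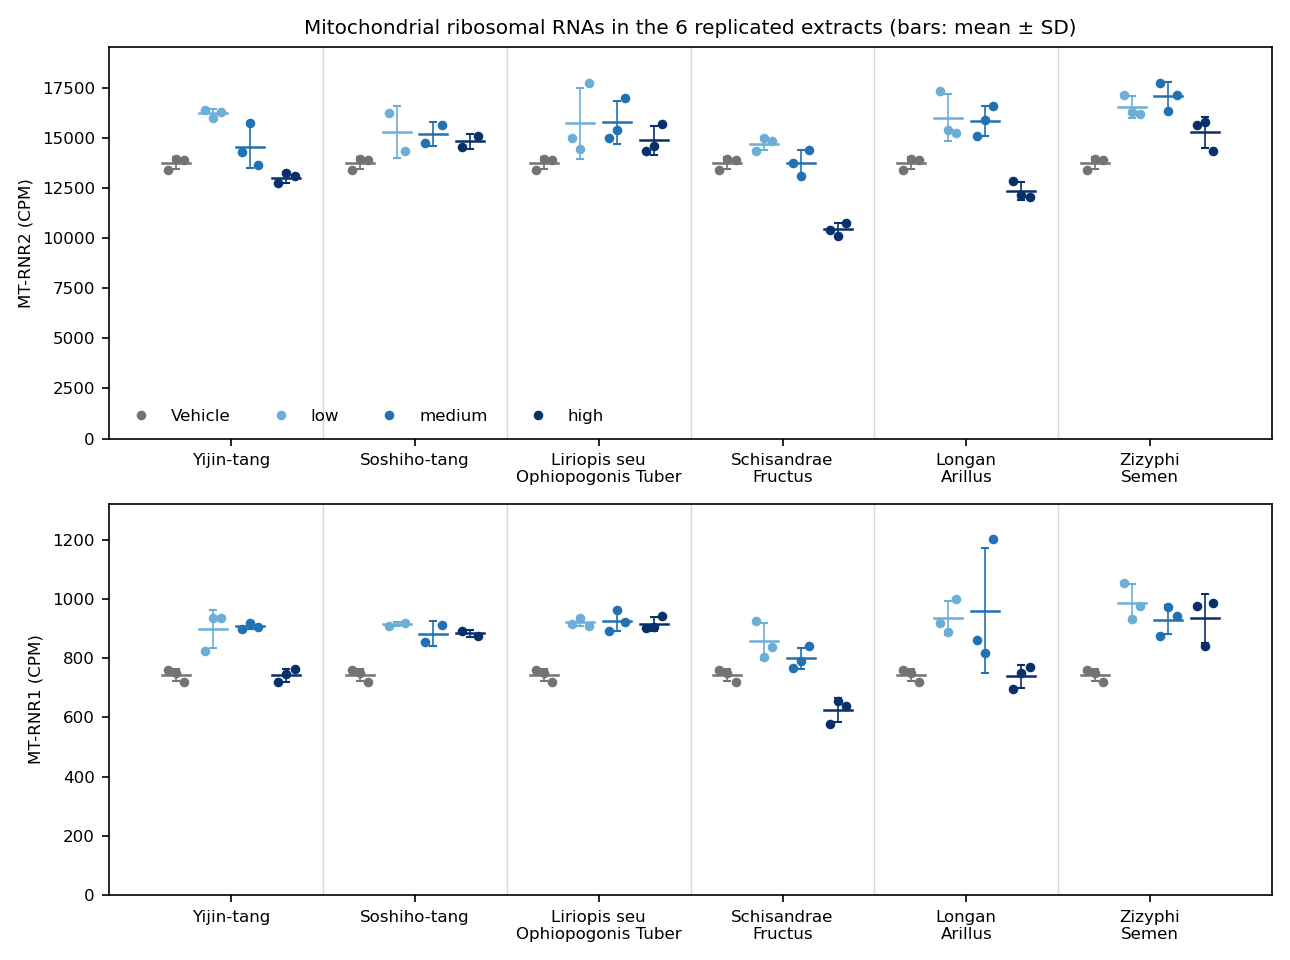
CPM of MT-RNR2 (upper panel) and MT-RNR1 (lower panel) per library for the 6 extracts with replicates; bars are mean ± SD, and the 3 vehicle libraries are repeated beside each extract. High-dose points lie below all low-dose points in both panels for Yijin-tang, Schisandrae Fructus and Longan Arillus, and, by smaller differences that did not pass, for MT-RNR2 of Zizyphi Semen and MT-RNR1 of Soshiho-tang.

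None of the messenger RNAs passed as lower. Over the 6 extracts, 0 of 78 gene tests of the 13 protein genes passed between high and low dose (edgeR), 1 had an unadjusted p under 0.05, and DESeq2 called 1. Their log2 fold changes lay between -0.215 and 0.379, with SEs of 0.087 to 0.277, so differences of about that size could be missed. The median over the 13 genes was 0.15 for Zizyphi Semen, 0.11 for Soshiho-tang, 0.02 for Longan Arillus, 0.01 for Liriopis seu Ophiopogonis Tuber, -0.03 for Yijin-tang and -0.04 for Schisandrae Fructus, where the median of all genes was within 0.002 of 0. In the gene closest to a call, MT-CO2 under Schisandrae Fructus, the high-dose libraries had 15456, 15482 and 16931 CPM, against 13184, 13275 and 13346 CPM at low dose. These groups did not overlap, and the log2 fold change was 0.28 ± 0.12 with an adjusted p of 0.0586 (edgeR) and 0.0473 (DESeq2). It passed under 6 of 9 alternative settings. Under Schisandrae Fructus, MT-ND4 passed in 3 of 9, MT-ND6 and MT-ATP8 in 2, and MT-ND3 and MT-CYB in 1, where the fitted value of MT-CYB was below 0 and the others above it.

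The ribosomal RNAs were therefore also set against the messenger RNAs of the same libraries. Schisandrae Fructus cells had 10.11, 10.67 and 11.1 ribosomal counts per 100 messenger counts at high dose, against 15.08, 14.79 and 15.41 at low dose and 13.9 to 14.21 in vehicle. Longan Arillus cells had 10.57, 10.67 and 12.46 at high dose, against 15.17, 14.79 and 14.75 at low dose. For Yijin-tang the ratio averaged 12.6 ± 1.11 at high dose and 15.3 ± 0.11 at low dose (SD, n = 3 each). The ratio was also lower without overlap for Soshiho-tang (13.38 and 13.95 at high dose, against 15.56 and 14.42 at low dose) and for Zizyphi Semen (12.56, 11.6 and 12.17 at high dose, against 14.76, 12.59 and 14.21 at low dose), where neither ribosomal RNA passed. Only Liriopis seu Ophiopogonis Tuber overlapped among the 6 extracts, with 12.81 to 14.35 at high dose and 13.3 to 15.25 at low dose, so full separation was not particular to the extracts with a call. When counts were scaled to the 13 messenger RNAs in place of all genes, a setting added after the data were seen, MT-RNR2 kept its call for Schisandrae Fructus (log2 fold change -0.51, adjusted p = 3.17e-06) and Longan Arillus (-0.41, adjusted p = 0.0364) and lost it for Yijin-tang (-0.28, adjusted p = 0.0828), all by edgeR. Under the same scaling MT-RNR1 kept its call for Schisandrae Fructus and lost it for Yijin-tang (-0.24, adjusted p = 0.806) and Longan Arillus (-0.37, adjusted p = 1.0), again by edgeR.

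Between medium and low dose, 0 of the 13 protein and 0 of the 2 ribosomal RNA genes passed in any of the 6 extracts (edgeR), with 10 of 78 protein tests and 1 of 12 ribosomal tests at an unadjusted p under 0.05. DESeq2 also made no call, with 9 protein tests under 0.05. Of all genes 0.0224% passed for Yijin-tang, 0.0112% for Soshiho-tang, 0.0392% for Schisandrae Fructus and 0.0% for each of the other 3.

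High doses were next set against vehicle, which lies in a library set of its own. For Zizyphi Semen 11 of the 15 genes passed, all higher, where 13.3% of all genes passed and 5.3% were higher. They were MT-RNR1 and 10 messenger RNAs of complexes I and IV and the ATP synthase. MT-ND6 had 1964, 1758 and 1639 CPM at high dose, against 1154, 1008 and 953 CPM in vehicle, a log2 fold change of 0.82 ± 0.23 with an adjusted p of 0.0121 (edgeR). MT-CO2 had 16885, 17102 and 17246 CPM at high dose, against 12541, 13236 and 12625 CPM in vehicle, a log2 fold change of 0.46 (adjusted p = 0.0109, edgeR). In all 11 genes the groups did not overlap, but the test had already picked these genes. The share of all genes without overlap was not counted. MT-CO3 had the lowest adjusted p (0.000937, edgeR), with a log2 fold change of 0.42, and MT-ATP8 a log2 fold change of 0.69 (adjusted p = 0.0301, edgeR). MT-CYB, MT-ND5, MT-ND4L and MT-RNR2 did not pass.

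These higher levels went with a higher mitochondrial share of the whole library. The 37 genes took 15.03% ± 0.94 of the counts at high dose of Zizyphi Semen, 15.32% ± 1.3 at medium and 14.46% ± 0.84 at low dose, and 11.78% ± 0.16 in vehicle (SD, n = 3 each). At low dose 6 genes passed against vehicle, all higher (18.5% of all genes passed and 6.61% were higher): both ribosomal RNAs, MT-CO2, MT-ATP8, MT-CO3 and MT-ND6. None of the 15 passed between high and low dose of this extract. Relative to the 13 messenger RNAs, 3 of the 17 tested genes passed at high dose. Under this scaling MT-CO1 (-0.11), MT-ND3 (-0.02), MT-ND4 (-0.03), MT-RNR1 (-0.04) and MT-RNR2 (-0.22) turned below vehicle. Because it fixes the sum of the 13 messenger RNAs, it cannot show whether they rose together. The call count also changed when 1 library was left out, with 7 genes without vehicle replicate 1 or 3 and 6 without Zizyphi Semen high replicate 2.

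Depth and the mitochondrial share were related by rank in 2 of the 4 sets of treated libraries. The permutations ran over all libraries of a set, across extracts and doses, so these p-values do not separate depth from treatment. Over the 18 libraries of Longan Arillus and Zizyphi Semen, the mitochondrial share and total counts had a Pearson r of -0.6 (permutation p = 0.0091, adjusted over 8 relations 0.0728) and a Spearman rho of -0.69 (permutation p = 0.00168, adjusted 0.0134), with r at -0.42 without the 2 libraries farthest in depth. Over the 18 libraries of Liriopis seu Ophiopogonis Tuber and Schisandrae Fructus, r was -0.41 (permutation p = 0.0864, adjusted 0.261) and rho -0.59 (permutation p = 0.0118, adjusted 0.0472), with r at -0.3 without the 2 farthest. Over the 15 libraries of Yijin-tang and Soshiho-tang neither measure passed (r -0.31, permutation p = 0.25, adjusted 0.398; rho -0.29, permutation p = 0.292, adjusted 0.34; r at -0.19 without the 2 farthest). Over the 6 libraries of Polygalae Radix and Aucklandiae Radix the sign was opposite and neither passed (r 0.44, permutation p = 0.374, adjusted 0.398; rho 0.71, permutation p = 0.136, adjusted 0.34; r at 0.95 without the 2 farthest). The vehicle libraries, with 18.73 to 20.47 M counts, were shallow and low in share at once. For the ribosomal RNA share alone, neither measure passed in any set (adjusted permutation p of 0.261 or above). The high-dose libraries of Schisandrae Fructus held 29.66, 32.57 and 31.26 M counts, all deeper than the low-dose libraries at 25.23, 26.07 and 20.71 M. High-dose and low-dose depths overlapped for Yijin-tang and Longan Arillus. The part of depth in the differences from vehicle and between doses was not tested.

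Schisandrae Fructus at high dose differed from vehicle in 5 of the 17 genes tested, where 50.1% of all genes passed, 23.4% higher and 26.7% lower. Both ribosomal RNAs fell below vehicle, MT-RNR2 by 0.43 (adjusted p = 3.01e-06, edgeR) and MT-RNR1 by 0.29 on the log2 scale (adjusted p = 0.00357, edgeR). MT-CO1 fell, with 20453 ± 1572 CPM at high dose and 23698 ± 100.4 CPM in vehicle (SD, n = 3 each; log2 fold change -0.25 ± 0.10, adjusted p = 0.0367, edgeR). MT-ND6 rose, with 1330, 1636 and 1717 CPM at high dose against 1154, 1008 and 953 CPM in vehicle (0.55 ± 0.23, adjusted p = 0.0394, edgeR). Both of these calls were lost in several fits with 1 library left out. Over the 6 fits the log2 fold change was -0.318 to -0.21 for MT-CO1 and 0.482 to 0.652 for MT-ND6. The adjusted p of MT-CO1 was 0.061 to 0.129 without any one vehicle library or without high replicate 2 or 3, and 0.0542 when scaled to nuclear genes. That of MT-ND6 was 0.0895 to 0.12 without vehicle replicate 2 or 3 or without high replicate 2 or 3. The fifth gene was MT-TA, described with the transfer RNAs.

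No mitochondrial gene passed between high dose and vehicle for Yijin-tang, Soshiho-tang and Longan Arillus (edgeR; 19.8%, 30.3% and 15.9% of all genes passed), and an unadjusted p under 0.05 was found in 0, 1 and 5 of their 15 ribosomal and messenger RNA genes; DESeq2 made no call either. The ribosomal RNAs that were lower at high than at low dose were not below vehicle at the threshold for Yijin-tang (MT-RNR2 -0.13) or Longan Arillus (-0.19). Against vehicle, MT-RNR2 and MT-RNR1 had fitted values of 0.21 and 0.24 at low dose of Yijin-tang, without a call, and MT-RNR1 passed at low dose of Longan Arillus (0.31, adjusted p = 0.0263, edgeR; 5.41% of all genes passed, 1.63% higher). For Liriopis seu Ophiopogonis Tuber, MT-RNR1 passed at high dose (0.28, adjusted p = 0.0434, edgeR; 4.09% of genes, 1.42% higher) and at low dose (0.30, adjusted p = 0.028, edgeR; 6.59% of genes, 2.02% higher). The high-dose call was lost whichever of the 6 libraries was left out (adjusted p 0.055 to 0.183). The low-dose calls were lost without vehicle replicate 2 or 3, and for Longan Arillus also without low replicate 1 or 3, for Liriopis seu Ophiopogonis Tuber also without low replicate 2 or 3. No gene passed at low dose of Yijin-tang, Soshiho-tang or Schisandrae Fructus (2.62%, 1.91% and 1.08% of all genes), with 3, 1 and 0 of 15 genes at an unadjusted p under 0.05 (edgeR); DESeq2 called 1 gene, for Yijin-tang.

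MT-ND6 stood above vehicle in each high-dose group by its fitted value. Besides the calls for Zizyphi Semen and Schisandrae Fructus, its log2 fold change was 0.58 for Liriopis seu Ophiopogonis Tuber (adjusted p = 0.117), 0.51 for Longan Arillus (0.124), 0.33 for Yijin-tang (0.329) and 0.21 for Soshiho-tang (0.579), all by edgeR and none past the threshold. These comparisons share the same 3 vehicle libraries, which also hold the lowest MT-ND6 value of the series. MT-ND6 also passed above vehicle at low dose of Zizyphi Semen, and between high and low dose of no extract. With 1 library left out, its high-against-low change was -0.083 to 0.043 for Yijin-tang and -0.44 to 0.01 for Soshiho-tang. It was -0.014 to 0.055 for Longan Arillus and 0.046 to 0.441 for Liriopis seu Ophiopogonis Tuber. For Schisandrae Fructus it was 0.306 to 0.476, and for Zizyphi Semen 0.093 to 0.231. Against vehicle, MT-ND4L had a negative fold change in each of the 6 high-dose groups, from -0.28 to -0.11, without a call. It did not pass between doses either.

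**Figure D4:**
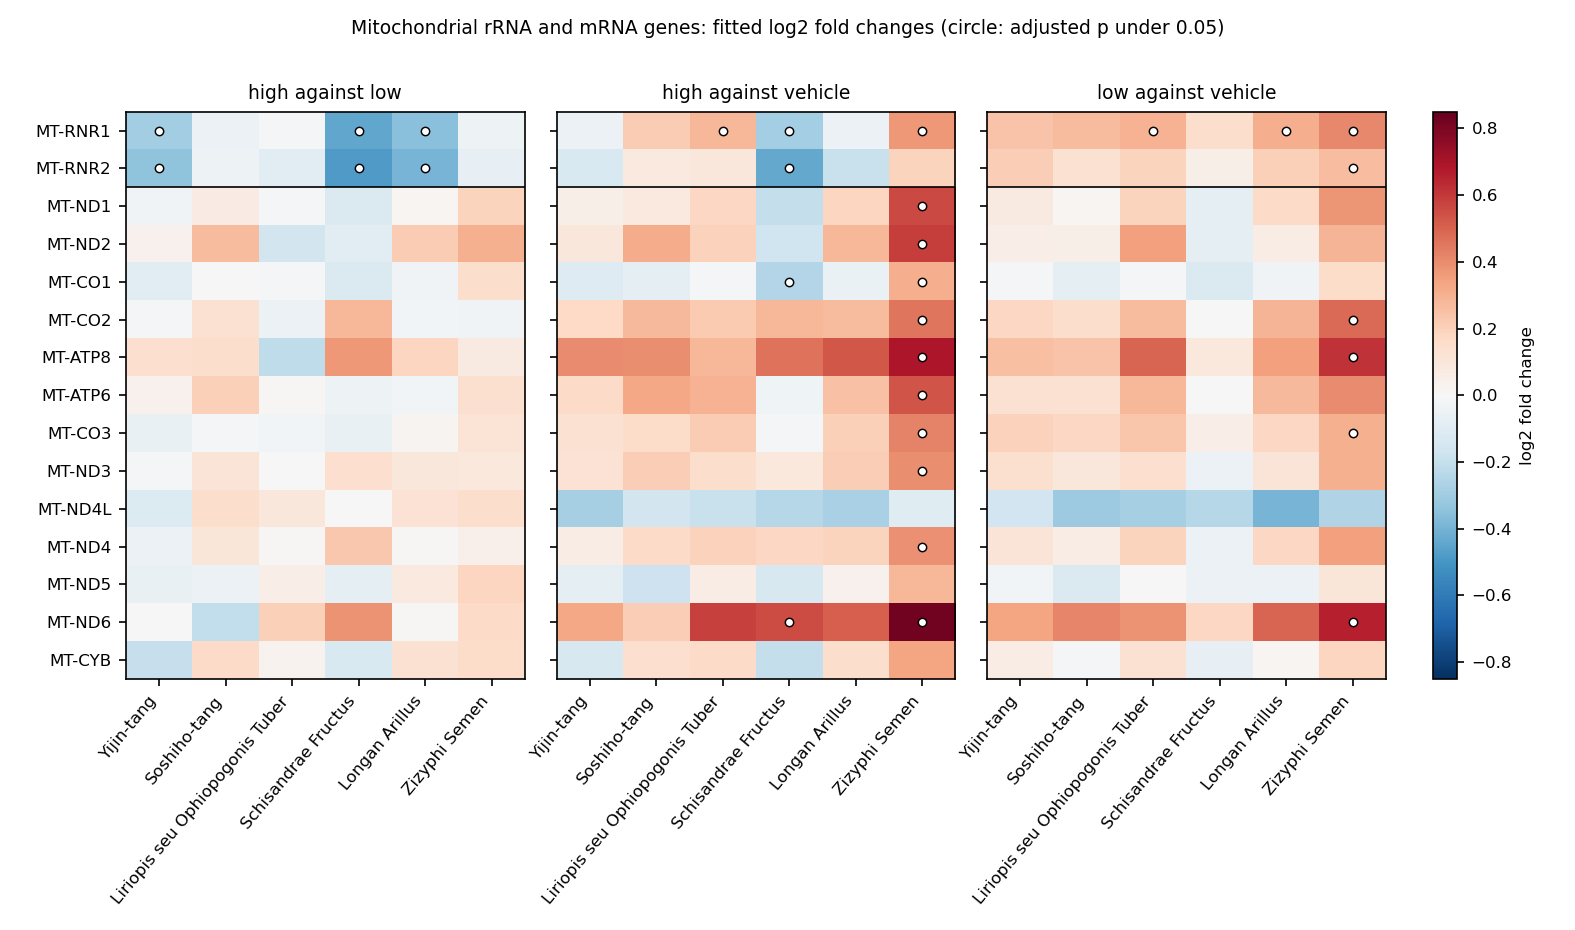
Fitted log2 fold changes (colour scale) of the 2 ribosomal and 13 messenger RNA genes in the 6 extracts with replicates, for high against low dose, high dose against vehicle and low dose against vehicle; circles mark an adjusted p under 0.05. Calls between doses lie in the 2 ribosomal RNA rows, from -0.48 to -0.30, and calls against vehicle lie mostly in the Zizyphi Semen column.

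Polygalae Radix and Aucklandiae Radix had 1 library per dose, so their differences have no replicate check and no test. The mitochondrial share at low, medium and high dose was 14.196%, 16.107% and 20.303% for Polygalae Radix. For Aucklandiae Radix it was 14.909%, 12.095% and 10.133%. Exact binomial 95% intervals, which cover counting error only, ran from 20.287% to 20.318% and from 10.121% to 10.145% at the high doses. The 2 series thus ran in opposite directions with dose and held both ends of the range over all libraries.

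In the Polygalae Radix high-dose library 13 of the 15 genes (12 with DESeq2 size factors) lay above the low-dose library, with a median log2 ratio of 0.22 and a range of -0.085 to 0.588, and 0 reached a 2-fold difference, where 23.8% of all genes did. At medium dose the median was 0.12 and 3.65% of all genes reached that size. Scaled by total counts all 15 lay above, so MT-ND1 and MT-ND2 changed sign, and the median was 0.527 where that of all genes was 0.317. MT-RNR1 had 1864 CPM and MT-RNR2 29226 CPM there, the highest values of the series, with 18.08 ribosomal counts per 100 messenger counts, against 14.21 at low dose. This is the library with the low VIM level. The sum of the 8 astroglial and neural stem markers was 892 CPM at high dose, of which VIM was 772 CPM. At low dose the sum was 5438 CPM, of which VIM was 5344 CPM. Summed leukocyte (79.3 against 209.9 CPM), epithelial (33.7 against 156.4 CPM) and neuron markers (16.6 against 34.9 CPM) were also lower at high dose. Endothelial markers summed to 22.8 CPM at high and 25.7 CPM at low dose. The part of these markers in the mitochondrial share was not tested.

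In the Aucklandiae Radix high-dose library 13 of the 15 genes lay below the low-dose library, with a median log2 ratio of -0.63, and 0 reached a 2-fold difference, where 14.4% of all genes did. At medium dose the median was -0.37 and 4.53% of all genes reached that size. MT-ATP8 had the lowest ratio at -0.98. MT-ND3 and MT-ND6 lay slightly above the low-dose library under every scaling, MT-ND3 by 0.07. MT-RNR2 was the lowest of the series at 9506 CPM, while MT-RNR1 had 943 CPM, so that MT-RNR2 was 10.08 times MT-RNR1. That ratio was 16.02 in the low-dose library and 17.6 to 19.3 in the vehicle libraries.

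**Figure D5:**
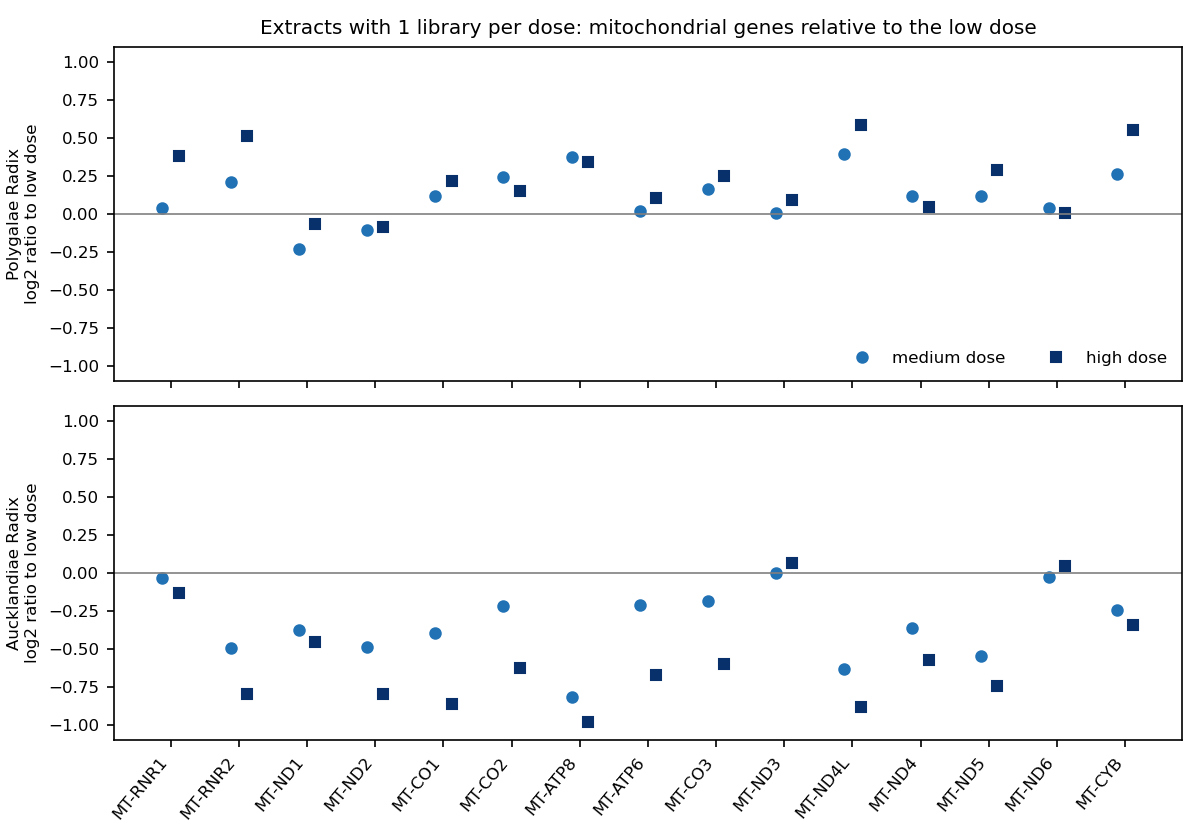
Log2 ratio of the medium-dose and high-dose library to the low-dose library for the 15 mitochondrial ribosomal and messenger RNA genes, for Polygalae Radix (upper panel) and Aucklandiae Radix (lower panel), 1 library per point. The high-dose points have medians of 0.22 and -0.63.

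Transfer RNAs were close to absent in these libraries, and nearly all their counts came from 1 strand. The 8 genes of the minus strand had 2376 counts over all 60 libraries, 11 to 78 in each, and the 14 of the plus strand had 43, at most 3 in each. No transfer RNA exceeded 1.136 CPM in any library, and 7 of the 22 had no count at all. MT-TA, the transfer RNA for alanine, had 971 counts and MT-TQ, that for glutamine, 688, while MT-TF led the plus strand with 20. The minus-strand transfer RNAs held 23.5% to 36.1% G and those of the plus strand 10.3% to 19.1%. MT-TA (5587 to 5655, minus), MT-TQ (4329 to 4400, minus) and MT-TW (5512 to 5579, plus, the transfer RNA for tryptophan with 0 counts) show this with G in capitals.
MT-TA: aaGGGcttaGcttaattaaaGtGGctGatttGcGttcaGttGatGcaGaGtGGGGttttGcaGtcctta
MT-TQ: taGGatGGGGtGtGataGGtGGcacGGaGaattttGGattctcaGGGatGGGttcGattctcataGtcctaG
MT-TW: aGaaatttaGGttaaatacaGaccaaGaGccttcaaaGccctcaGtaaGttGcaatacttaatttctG
These 3 and MT-TF are named after their counts were seen. No minus-strand transfer RNA gene overlaps a messenger RNA gene, and MT-TQ shares 3 bases with the plus-strand transfer RNA gene MT-TI. The strand setting of the authors' counting is not given in the sources used here. MT-TA had 19, 37 and 35 counts at high dose of Schisandrae Fructus, 24, 9 and 9 at low dose, and 7, 13 and 1 in vehicle. Against vehicle the log2 fold change was 1.42 ± 0.47 (adjusted p = 0.0113, edgeR), and without vehicle replicate 3, the library with 1 count, it was 0.94 with an adjusted p of 0.106. Neither transfer RNA passed between high and low dose of any extract (edgeR). MT-TQ at high against low dose of Liriopis seu Ophiopogonis Tuber had an unadjusted p of 0.000809.

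Nuclear pseudogenes of mitochondrial sequence can share reads with these genes. The table held 391 of them, which together took 0.1193% to 0.2947% of the counts of a library, and 5 had a median above 1 CPM. MTATP6P1, on chromosome 1 (633696 to 634376, GRCh38), had a median of 1529 CPM and was 98.53% identical to MT-ATP6. MTND2P28 (98.37% identical to MT-ND2) had 239 CPM and MTCO1P12 (98.7% identical to MT-CO1) 60.7 CPM. The split of reads between these copies and their mitochondrial originals by the authors' counting is uncertain. Of the 11 copies tested, 1 fell and 1 rose between high and low dose of Schisandrae Fructus, where 45.9% of all genes passed. In the other 5 extracts 0 passed (edgeR), where 0.0% to 18.6% of all genes did. MTND2P28 fell at high dose of Schisandrae Fructus, with 162 ± 13.8 CPM at high dose and 241 ± 20.2 CPM at low dose (log2 fold change -0.56, adjusted p = 0.00142, edgeR). MTCO1P40 rose, with 1.31 ± 0.69 CPM at high dose and 0.53 ± 0.18 CPM at low dose (1.35, adjusted p = 0.016, edgeR).

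The nuclear genes that copy, process and translate this genome were read in lists. For Schisandrae Fructus, 8 of 22 genes for mitochondrial transcription and DNA upkeep rose and 3 fell between high and low dose, with a list median of 0.05 beside -0.002 for all genes; 36.4% of the list rose and 13.6% fell, where 22.3% of all genes rose and 23.6% fell. POLG, the mitochondrial DNA polymerase, had 64.4 ± 2.5 CPM at high dose and 30.6 ± 0.19 CPM at low dose (log2 fold change 1.09, adjusted p = 8.22e-20, edgeR). POLRMT, the mitochondrial RNA polymerase, had 67.5 ± 7.81 CPM at high dose and 38.4 ± 1.74 CPM at low dose (0.83, adjusted p = 4.28e-15, edgeR). TFB1M, which methylates the small ribosomal RNA, had 18.0 ± 1.98 CPM at high dose and 8.10 ± 0.17 CPM at low dose (1.17, adjusted p = 8.19e-15, edgeR). The helicase TWNK also rose (0.48, adjusted p = 3.29e-07, edgeR). These RNAs, named for the lowest adjusted p in the list, were up in the libraries in which both ribosomal RNAs were down. A link between them was not tested.

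Among 10 regulators of mitochondrial gene expression, 3 rose and 4 fell with Schisandrae Fructus, 70.0% in all where 45.9% of all genes passed. PPARGC1A, a coactivator of mitochondrial biogenesis, had 0.31 ± 0.12 CPM at high dose and 2.30 ± 0.28 CPM at low dose (log2 fold change -2.85, adjusted p = 1.01e-12, edgeR). ESRRA, a nuclear receptor that works with it, rose (0.55, adjusted p = 2.21e-08, edgeR). Of 30 genes for RNA processing and stability, 10 rose (33.3%) and 5 fell (16.7%), beside 22.3% and 23.6% of all genes. Among them TBRG4 rose (0.42), as did ELAC2, which trims the 3′ ends of transfer RNAs (0.27), while HSD17B10, a subunit of the mitochondrial RNase P, fell (-0.48). Of 78 mitochondrial ribosomal proteins, 20 rose and 7 fell, with MRPL2 up by 0.68 and MRPS14 at -0.48; the 34.6% that passed is below the 45.9% of all genes.

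Of 76 nuclear-encoded respiratory chain subunits 6 rose (7.89%) and 17 fell (22.4%), with a list median of -0.06; the share that fell is near the 23.6% of all genes. SDHA, a complex II subunit, rose (0.53, adjusted p = 1.65e-12, edgeR) and the complex I subunits NDUFA5 (-0.35) and NDUFA9 (-0.40) fell. Of 14 mitochondrial chaperones and proteases 12 rose (85.7%, beside 22.3% of all genes) and 0 fell, with a list median of 0.26. The matrix protease LONP1 rose by 0.57 and the chaperone HSPA9 by 0.33 on the log2 scale. Markers also differed between these groups, since 3 of the 4 expressed astroglial and neural stem markers fell and VIM rose, and their summed level was 4884 to 5260 CPM at high dose and 4722 to 4921 CPM at low dose. Neuron markers summed to 21.6 to 23.4 CPM at high dose and 36.2 to 40.3 CPM at low dose, but of the 4 genes only SNAP25 fell (12.9 ± 1.55 CPM at high dose, 30.5 ± 1.95 CPM at low dose), while SYN1 (0.33, adjusted p = 0.024, edgeR) and RBFOX3 (1.04, adjusted p = 0.0384, edgeR) rose. Leukocyte markers summed to 256 to 265 CPM at high dose and 209 to 221 CPM at low dose, nearly all of it CD68, which rose (0.36, adjusted p = 0.000175, edgeR). PTPRC, the pan-leukocyte marker, fell, with 1.81 ± 0.32 CPM at high dose and 8.70 ± 1.09 CPM at low dose (-2.25, adjusted p = 2.92e-16, edgeR), and CD3E had a median of 0 CPM. Of the epithelial markers KRT18 fell (-0.65) and KRT8 rose (0.26), and of the endothelial markers KDR rose (0.29). Their part in the mitochondrial results was not tested.

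In the other extracts fewer of these nuclear genes passed, as did fewer of all genes. Of all genes 7.0% passed for Yijin-tang, 0.936% for Longan Arillus and 5.78% for Zizyphi Semen. For Yijin-tang 1 of 22 transcription and upkeep genes, 1 of 30 processing genes and 1 of 10 regulators passed. For Longan Arillus 1 of the 22 and 1 of the 30 passed, and for Zizyphi Semen 2 of the 22 and 0 of the 30. In Yijin-tang, POLG rose, with 35.7 ± 2.33 CPM at high dose and 28.5 ± 0.84 CPM at low dose (0.30, adjusted p = 0.000363, edgeR), as did PNPT1, an RNA-degrading enzyme (0.17, adjusted p = 0.0245), and PPARGC1A fell (-0.68, adjusted p = 0.0201). In Longan Arillus, POLG rose, with 33.9 ± 2.86 CPM at high dose and 28.0 ± 2.03 CPM at low dose (0.25, adjusted p = 0.0191, edgeR), and FASTKD5 fell (-0.22, adjusted p = 0.0355). POLG thus passed, higher at high dose, for Yijin-tang, Schisandrae Fructus and Longan Arillus, and did not pass for the other 3. A link of POLG to the ribosomal RNA levels was not tested. In Soshiho-tang, where neither ribosomal RNA passed, 4 of 22 transcription and upkeep genes passed, a share (18.2%) near the 18.6% of all genes. All 4 were higher, among them TFB1M (0.51) and POLRMT (0.25). Of the 14 chaperones and proteases 2 passed, HSPA9 (0.54) and LONP1 (0.66), both higher, beside the same 18.6% of all genes. In Zizyphi Semen MTERF2 (-0.39, adjusted p = 0.00108, edgeR) and MTRES1 (-0.34, adjusted p = 0.0259, edgeR) fell, and in Liriopis seu Ophiopogonis Tuber 0 genes of any list passed, as 0 genes passed in the whole table (edgeR).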

How the data were processed

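Expected counts per gene in 60 libraries were deposited by the authors as 1 table. The submitters' processing notes name RSEM 1.3.3 for counting, STAR 2.7.3a and the build hg38 for alignment, Trim Galore 0.6.5 and FastQC 0.11.9. Neither annotation release nor strand setting is given in the sources used here. Per the labels' protocols, messenger RNA libraries were made with a directional kit and read in pairs. The sample labels give 0.1% dimethyl sulfoxide for vehicle, and the design text another value.

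RSEM divides reads that match several genes, and 10.86% of values were not whole; all were rounded to whole numbers. The 54 libraries of the 19 groups with replicates were fitted together in edgeR 4.0.16 (R 4.3.3, limma 3.58.1) with 1 mean per group, the default filter, TMM scaling (factors 0.943 to 1.045) and the quasi-likelihood test, with 35 residual degrees of freedom. The standard error is the size of the log2 fold change divided by the square root of F. DESeq2 1.42.0 was an alternative, as were other scalings, no filter, only the libraries compared, a replicate block and leaving out each library. The fitting code was tested on simulated data. Symbols came from a name table that matched 56558 of 60675 IDs, and positions and sequences from GENCODE release 29. Library pairs of a group were checked for copies, and none were found.

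The members and the gene lists were chosen with earlier results of these data known. Named were all mitochondrial genes past the filter and, per list, up to 4 genes with the lowest adjusted p among those past the threshold between high and low dose. The labels do not say that equal replicate numbers mark shared cultures. Depth was 18.73 to 35.52 M counts, so counting error is small beside library spread except in the transfer RNAs.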

Additional observations from a re-analysis of the deposited data

Results flagged for a closer look

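The mitochondrial share of counts moved in opposite directions with dose in the extracts that have 1 library per dose. High minus low dose was 6.11 percentage points for Polygalae Radix and -4.78 for Aucklandiae Radix. The difference was not tested, since each dose is 1 library, and the doses of the extracts differ. The Polygalae Radix high-dose library also had 772 CPM of VIM, against 5344 CPM at low dose, and its part in the share was not tested. The Aucklandiae Radix libraries had 5601 CPM of VIM at high and 4941 CPM at low dose.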

How the results depend on the processing

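DESeq2 size factors and scaling to nuclear genes changed no count of called mitochondrial genes by more than 1.5 times. The replicate number as a block changed no call; as a block within library sets it added 1, MT-CO2 for Schisandrae Fructus high against low dose (0.279, adjusted p = 0.0371, edgeR). Same-numbered libraries deviated together (every correlation over 0.1) only for Liriopis seu Ophiopogonis Tuber medium against low. Where counts moved by more than 1.5 times they are given here as the number called, in the order Yijin-tang, Soshiho-tang, then Liriopis seu Ophiopogonis Tuber, Schisandrae Fructus, Longan Arillus, Zizyphi Semen, with unmoved extracts left out by name. With no filter, which tests more transfer RNAs of few counts, high against low dose gave 4 (Yijin-tang), 2 (Soshiho-tang), 7 (Schisandrae Fructus) and 2 (Zizyphi Semen), high dose against vehicle 6, 10, 10, 12 and 12 (all but Zizyphi Semen), medium against low dose 7, 5, 4, 8 and 1 (all but Soshiho-tang), low dose against vehicle 6, 5, 11, 2, 10 and 14, and each difference of changes 2. With only the libraries compared, high against low dose gave 4 (Soshiho-tang), 7 (Schisandrae Fructus) and 0 (Longan Arillus), high dose against vehicle 5, 11, 7, 11 and 6 (all but Zizyphi Semen), low dose against vehicle 7, 4, 0, 3, 8 and 12, and Soshiho-tang minus Yijin-tang 4. Total counts gave 1 for high dose against vehicle (Soshiho-tang and Longan Arillus) and 1 (Yijin-tang), 10 (Zizyphi Semen), 2 (Longan Arillus) and 3 (Liriopis seu Ophiopogonis Tuber) for low dose against vehicle. DESeq2 gave 1 (Yijin-tang), 2 (Liriopis seu Ophiopogonis Tuber) and 2 (Longan Arillus) for low dose against vehicle and 1 for Longan Arillus minus Zizyphi Semen. Scaling to the 13 messenger RNAs, added after the data were seen, gave 0 (Yijin-tang), 4 (Schisandrae Fructus) and 1 (Longan Arillus) for high against low dose, 1 (Soshiho-tang), 0 (Liriopis seu Ophiopogonis Tuber), 8 (Schisandrae Fructus), 1 (Longan Arillus) and 3 (Zizyphi Semen) for high dose against vehicle, and 0 (Liriopis seu Ophiopogonis Tuber and Longan Arillus) and 2 (Zizyphi Semen) for low dose against vehicle. This scaling fixes the sum of the 13 messenger RNAs, so it cannot show whether they changed together. For Zizyphi Semen at high dose against vehicle it turned MT-CO1 (-0.108), MT-ND3 (-0.022), MT-ND4 (-0.027), MT-RNR2 (-0.223) and MT-RNR1 (-0.04) below vehicle. The cause of these shifts was not tested.

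The Schisandrae Fructus difference in share, high minus low dose, was 0.092 percentage points over the protein genes alone. Single-library medians over low dose were 0.196, 0.215 and 0.527 for Polygalae Radix high under size factors, nuclear and total scaling, 0.118, 0.115 and 0.188 for its medium dose, -0.618, -0.622 and -0.543 for Aucklandiae Radix high, and -0.367, -0.361 and -0.327 for its medium dose. Leaving out 1 library gave 1 to 2 calls for high against low dose of Yijin-tang and Longan Arillus and 2 to 3 for Schisandrae Fructus. Against vehicle it gave 0 (Liriopis seu Ophiopogonis Tuber), 2 to 6 (Schisandrae Fructus), 0 to 1 (Longan Arillus) and 6 to 12 (Zizyphi Semen) at high dose, and 0 to 2, 0 to 1 and 2 to 10 at low dose (Liriopis seu Ophiopogonis Tuber, then Longan Arillus, then Zizyphi Semen). Without low replicate 3 of Longan Arillus or high replicate 3 of Zizyphi Semen the difference of their changes had 1 call, otherwise 0. At low dose of Zizyphi Semen the extremes came without its low replicate 1 (2) and 3 (10). The difference in share, high minus low dose, ranged from -0.973 to -0.223 (Yijin-tang), 0.34 to 0.941 (Soshiho-tang), -0.97 to 1.164 (Liriopis seu Ophiopogonis Tuber), -0.575 to -0.175 (Schisandrae Fructus), -0.588 to 0.725 (Longan Arillus) and 0.083 to 1.047 (Zizyphi Semen). Through counting error, depth limits the transfer RNAs only, which have at most 78 counts per strand and library.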
